A study of Mus musculus with 4 samples.

Results

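The lower part of glycolysis, from aldolase to pyruvate kinase, is carried out by a small set of abundant enzymes, and 10 of the genes that encode them were followed in 4 mouse lung tumours. The genes were chosen by name along the pathway and not by their values: Aldoa and Aldoc for aldolase, Tpi1 for triosephosphate isomerase, Gapdh, Pgk1 and Pgam1 for the steps that follow, Eno1 and Eno2 for enolase, and Pkm and Pklr for pyruvate kinase. They are 10 of the 39017 genes in the count table, and 10 of 10 had a mean normalised read count of at least 1 CPM (counts scaled to 1000000 effective reads), as did 14225 genes in all.

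Aldolase splits fructose bisphosphate into a pair of triose phosphates, which Tpi1 interconverts. Gapdh oxidises glyceraldehyde phosphate and makes NADH, Pgk1 and the pyruvate kinases make ATP, and between those steps Pgam1 moves a phosphate group and enolase removes water. Tumours often take up much glucose and release lactate, and this stretch of the pathway feeds that flow as well as side branches such as serine synthesis, so its genes are commonly read as a sign of glycolytic activity and, in the case of Gapdh, as a reference for other genes.

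The 4 tumours formed 1 control group from KP mice, a model of lung adenocarcinoma. The male mice, of the C57BL/6 strain, carried an oncogenic K-ras allele behind a removable stop cassette and floxed p53 alleles, and received 1500 viral units of a lentivirus expressing Cre recombinase under the PGK promoter into the trachea. Whether they also carried a floxed Slc2a1 allele is unclear: the genotype label reads heterozygous fl/wt with no gene named, another deposited table has WT in its column names, and in the study's methods a control could be either wild type or a heterozygote. The promoter is named for phosphoglycerate kinase, the enzyme that Pgk1 encodes, and is active in many cell types, so it does not limit Cre to 1 lineage. The lung tumours were cut out at 22 weeks and 5 days after initiation and dissociated to single cells, with no sorting step in the labels. The study's methods describe RNA from bulk tumours and from fractions depleted of immune cells, the latter also for PGK-Cre tumours. The age of the mice was not given in the sources used here. The labels number the tumours 1 to 4 but do not say whether they came from separate mice. They may therefore not be independent in the SDs and tests below. With 1 library per tumour, a technical part of the spread between tumours cannot be told apart. With 1 group there was no contrast between conditions, and the measurements are the level of each gene, the order of the genes within a tumour and the spread across tumours.

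Total counts were between 8151613 and 8799007 per tumour, and 3 counts, the most that a count of 0 allows, corresponded to 0.330 to 0.370 CPM. The lung identity of the samples was checked with alveolar type 2 markers, and 8 of 8 were detected, with a summed level between 32133 and 59397 CPM that was lowest in tumour 1. In bulk RNA, fewer cells of a type and less RNA per cell cannot be told apart. Among the genes of the model, Trp53 had a mean of 11.9 ± 1.49 CPM (SD, n = 4) and the lung lineage factor Nkx2-1 320.7 ± 50.9 CPM.

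The promoter sequences of the members are shown first, because members that peaked in the same tumour are described together later and the sequence around their start sites is what the rule of choice did not use. RefSeq lists 17 promoter windows for the 10 members on GRCm38.p6, each from 250 bases before to 50 bases after a start site. In 6 members a window had no annotated exon base in its 250 upstream bases, and these upstream bases are given 5′ to 3′ on the strand of the gene. Capitals mark the letters ACGTG or GCGTG on either strand, the core that the hypoxia-inducible factors are known to bind. The start of the Pgam1 window and of the Eno1 window was not found in an annotated transcript, so these may lie apart from the start sites that GENCODE M21 gives.
Aldoa (chr7:126799255-126799504, minus strand): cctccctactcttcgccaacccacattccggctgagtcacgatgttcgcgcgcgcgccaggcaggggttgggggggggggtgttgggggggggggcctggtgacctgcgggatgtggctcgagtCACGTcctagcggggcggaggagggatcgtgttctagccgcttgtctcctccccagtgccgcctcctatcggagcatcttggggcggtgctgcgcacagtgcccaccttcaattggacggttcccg
Gapdh (chr6:125165774-125166023, minus strand): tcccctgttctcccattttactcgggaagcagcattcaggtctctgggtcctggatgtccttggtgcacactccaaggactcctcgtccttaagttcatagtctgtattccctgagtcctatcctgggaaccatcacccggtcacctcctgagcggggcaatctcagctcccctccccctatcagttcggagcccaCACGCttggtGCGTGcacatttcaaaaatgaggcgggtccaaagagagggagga
Pgk1 (chrX:106186850-106187099, plus strand): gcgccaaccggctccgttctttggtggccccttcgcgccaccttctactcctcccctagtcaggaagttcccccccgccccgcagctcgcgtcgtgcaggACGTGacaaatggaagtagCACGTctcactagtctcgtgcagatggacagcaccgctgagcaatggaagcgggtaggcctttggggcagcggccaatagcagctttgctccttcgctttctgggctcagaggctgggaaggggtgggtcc
Pgam1 (chr19:41911621-41911870, plus strand): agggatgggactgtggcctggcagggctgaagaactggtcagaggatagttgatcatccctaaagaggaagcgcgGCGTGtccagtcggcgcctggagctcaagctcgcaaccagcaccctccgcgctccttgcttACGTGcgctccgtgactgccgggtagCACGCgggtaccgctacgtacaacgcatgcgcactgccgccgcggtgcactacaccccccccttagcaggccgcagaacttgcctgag
Eno1 (chr4:150236458-150236707, plus strand): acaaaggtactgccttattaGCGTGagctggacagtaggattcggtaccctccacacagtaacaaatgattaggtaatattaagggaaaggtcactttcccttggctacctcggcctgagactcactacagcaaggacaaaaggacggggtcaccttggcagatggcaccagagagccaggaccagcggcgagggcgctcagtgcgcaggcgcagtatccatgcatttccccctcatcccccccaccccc
Pklr (chr3:89135892-89136141, plus strand): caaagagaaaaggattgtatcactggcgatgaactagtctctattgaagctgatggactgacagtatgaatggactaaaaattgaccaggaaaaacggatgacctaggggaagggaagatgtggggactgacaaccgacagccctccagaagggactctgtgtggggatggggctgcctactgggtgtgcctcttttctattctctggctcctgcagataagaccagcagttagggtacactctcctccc

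The capitals occur in 5 of these 6 sequences, at 2 places in Gapdh and Pgk1 and at 3 in Pgam1, and in none of the bases shown for Pklr. Over whole windows, ACGTG or GCGTG was found in 11 of 17 windows and in 7 of 10 members, and in 43.8% of the 32851 windows of all genes. Windows of 1 gene can overlap, so the 17 are not independent. The share of all genes was counted per window only. A gene with several windows has more places for a match, so 7 of 10 has no like background here. The sequence GGGCGG, a GC box, was found in 9 of 17 windows against 35.7% of all windows, and TATAAA in 2 of 17 against 13.6%. CACGTG, the E-box that Myc and related factors bind and which contains ACGTG, was found in 0 of 17 windows and in 7.15% of all. These are matches of letters on either strand, and no binding was measured in these tumours.

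Pyruvate kinase closes the pathway, and Pkm, the form found in most tissues and in tumours, was the member with the most reads. Its level was 1538, 1031, 810 and 661 CPM in tumours 1 to 4 (mean 1010 ± 383, SD, n = 4), and 61 genes in the table, Pkm included, were at least as abundant. Tumour 1 was 2.33 times tumour 4, with the other tumours between them. Pkm (ENSMUSG00000032294) is at chr9:59656368-59679375, plus strand (GRCm38). Its splice forms share most of their exons and cannot be told apart in counts per gene.

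Aldoa, the aldolase of most tissues, had 1173, 609, 685 and 661 CPM in tumours 1 to 4 (mean 782 ± 262, SD, n = 4). Tumour 1 stood above the others, which lay within 1.13-fold of each other, but its gap did not pass Dixon's limit for 4 samples (ratio 0.819). Tpi1 had 1057, 809, 659 and 678 CPM (mean 801 ± 183, SD, n = 4), again with tumour 1 highest and with tumours 3 and 4 close together. Aldoa (ENSMUSG00000030695) is at chr7:126795234-126800751, minus strand, and Tpi1 (ENSMUSG00000023456) at chr6:124810586-124814296, minus strand.

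Gapdh had 678, 207, 564 and 416 CPM in tumours 1 to 4 (mean 466 ± 204, SD, n = 4). Tumour 2 was the low one, and tumour 1 held 3.29 times its level. Leaving out tumour 2 brought the range of Gapdh to 1.63-fold, so tumour 2 decides its size. Pgk1, which follows Gapdh in the pathway and makes the earlier of its ATP, had 817, 389, 669 and 495 CPM (mean 592 ± 189, SD, n = 4). The order of the tumours was the same for both genes, 1, 3, 4 and 2, and the range of Pgk1 was 2.10-fold. Gapdh (ENSMUSG00000057666) is at chr6:125161715-125166467, minus strand, and Pgk1 (ENSMUSG00000062070) at chrX:106187100-106203699, plus strand.

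Pgam1, the mutase that moves the phosphate group along the triose, was the least abundant of the main forms. It had 114, 95.8, 59.7 and 57.2 CPM in tumours 1 to 4 (mean 81.7 ± 27.9, SD, n = 4), with tumours 1 and 2 above tumours 3 and 4. Eno1, the enolase of most tissues, had 567, 350, 268 and 291 CPM (mean 369 ± 137, SD, n = 4). Its range was 2.12-fold with tumour 1 and 1.30-fold without it, so tumour 1 decides its size, as it did for Aldoa, whose range went from 1.93-fold to 1.13-fold. Pgam1 (ENSMUSG00000011752) is at chr19:41911923-41918660, plus strand, and Eno1 (ENSMUSG00000063524) at chr4:150236721-150248879, plus strand.

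The remaining members are forms known from other tissues, and they were scarce. Aldoc, the aldolase of brain, had 18.2, 13.7, 15.8 and 15.2 CPM in tumours 1 to 4 (mean 15.7 ± 1.85, SD, n = 4), and its tumours differed by at most 1.32-fold. Eno2, the enolase of neurons and neuroendocrine cells, had 9, 12, 8 and 10 counts, or 0.990, 1.39, 0.987 and 1.19 CPM. All 4 tumours were above the floor of 3 counts, and none stood out. Pklr, the pyruvate kinase of liver and red blood cells, had 42, 103, 0 and 40 counts, or 4.62, 11.96, 0 and 4.76 CPM. It was highest in tumour 2 and not detected in tumour 3, where a count of 0 allows up to 0.370 CPM, so tumour 2 held at least 32.3 times and tumours 1 and 4 at least 12.5 and 12.9 times the level of tumour 3. Aldoc (ENSMUSG00000017390) is at chr11:78322968-78327781, plus strand, Eno2 (ENSMUSG00000004267) at chr6:124760053-124769673, minus strand, and Pklr (ENSMUSG00000041237) at chr3:89136142-89146784, plus strand.

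**Figure D1:**
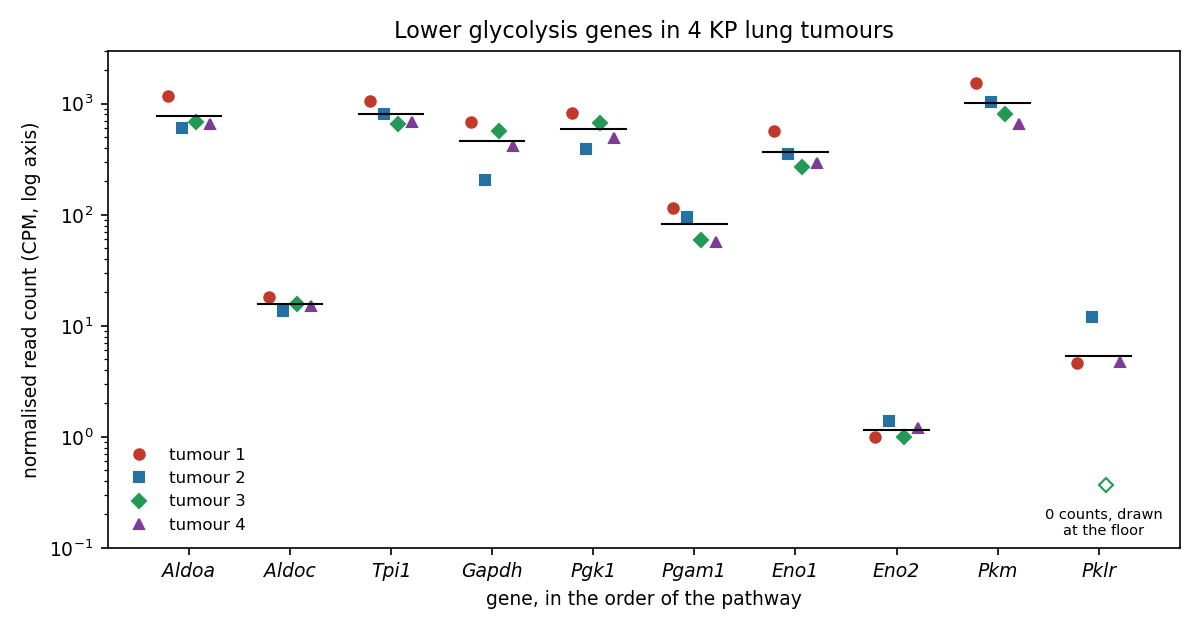
Normalised read count (CPM, log axis) of the 10 members in each of 4 tumours, in the order of the pathway; each point is 1 library, black lines are means and the open point is a count of 0 drawn at the floor of 0.370 CPM. Tumour 1 was highest in 8 of 10 members, beside 31.4% of all genes tested, and Pklr was not detected in tumour 3.

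Together the 10 members held 0.616, 0.345, 0.371 and 0.326% of all counts in tumours 1 to 4. The 95% Wilson intervals of these shares, 0.611 to 0.622%, 0.341 to 0.349%, 0.367 to 0.375% and 0.322 to 0.330%, did not overlap. Intervals and floors cover counting error only, since the reads carried no molecular identifiers. The share of tumour 1 was 1.89 times that of tumour 4, and without tumour 1 the highest share was 1.14 times the lowest. The mean share was 0.414% ± 0.136 (SD, n = 4).

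Spread beyond counting error was tested for every gene with a chi-square test of its 4 counts against Poisson expectations (3 degrees of freedom, Benjamini-Hochberg adjustment over 14225 genes). It was called in 8 of 10 members, beside 76.7% of all genes tested, so the count of members is near that background. The largest adjusted p among the 8 was 9.68e-24, for Pklr, and the members not called were Aldoc (adjusted p of 0.147 in the same test) and Eno2 (0.851). Eno2 had at most 12 counts in a tumour, and no difference between tumours was detectable at that depth. By Dixon's ratio 1 tumour stood apart in 0 of 10 members and in 5.86% of all genes, where normal noise gives 5%.

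The highest value lay in tumour 1 in 8 of 10 members, the exceptions being Eno2 and Pklr, both highest in tumour 2. Over all genes tested the highest value lay in tumour 1 in 31.4%, beside 20.4% for tumour 2, 30.2% for tumour 3 and 18.0% for tumour 4. The lowest value was less uniform, and 1, 4, 3 and 2 members were lowest in tumours 1 to 4. The level of tumour 1 over the mean of the others had a median of 1.59 over the members and of 0.992 over all genes. Scaling each tumour to the summed reference genes described below, a scaling chosen after seeing the data, left 7 of 10 members highest in tumour 1. The summed reference genes were themselves highest in tumour 1 (6192 against 5164 to 5682 CPM). The share of all genes is not given here under that scaling, so 31.4% is no background for the 7 of 10. No test was made of these counts, since members of 1 pathway in the same libraries are not independent of each other.

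The SD of log2 CPM over the 4 tumours had a median of 0.48 in the members and of 0.29 in all genes tested. The highest value was at least 2 times the lowest in 5 of 10 members, which were Gapdh, Pgk1, Eno1, Pkm and Pklr, and in 28.5% of all genes. The median range was 2.00-fold over the 9 members with no count of 0 and 1.58-fold over all such genes. These differences from the background rest on tumour 1. Without it the median SD was 0.28 in the members and 0.25 in all genes, and the median range 1.41-fold and 1.39-fold, whereas without any of the other tumours the median SD of the members stayed between 0.42 and 0.52. Aldoc was among the steadier genes (SD 0.17, percentile 20.8 of all genes tested), and Gapdh was at percentile 89.1. The value for Pklr (SD 3.42) depends on the 0.5 added to its count of 0 and is not a measured spread.

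**Figure D2:**
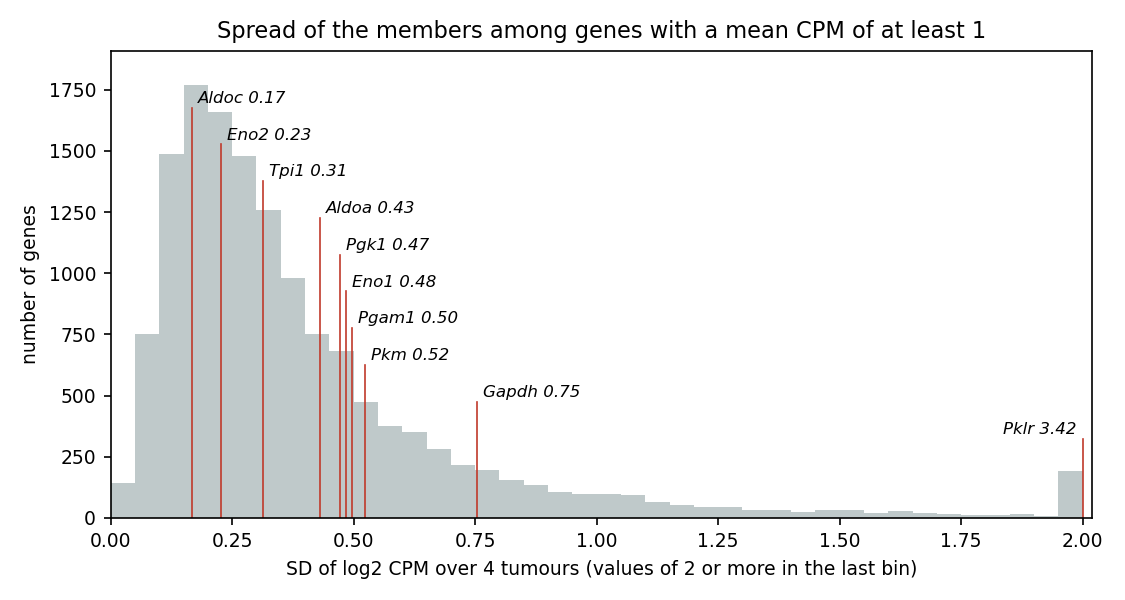
Histogram of the SD of log2 CPM over 4 tumours (x axis) for the 14225 genes tested (y axis, number of genes), with red lines at the 10 members. Gapdh, at 0.75, had the widest spread of the members with no count of 0, and 7 members lay above the median of all genes, 0.29, and below 1. Pklr, at 3.42, also lay above the median and is drawn at 2. The last bin holds all values from 1.95 upward.

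Members that peaked in the same tumour did not share 1 profile. Profiles were compared as the root mean square distance of log2 CPM centred on each gene's mean, over the 4 tumours, for the 28 pairs of the 8 members with a mean CPM of at least 10. The closest pairs were Pgam1 and Pkm (0.143), Tpi1 and Eno1 (0.153) and Eno1 and Pkm (0.162). In these 4 genes tumour 1 was highest and tumour 2 next. The farthest pairs were Gapdh and Pgam1 (0.807) and Gapdh and Pkm (0.706), and Gapdh and Pgk1, with tumour 2 lowest, were closer to each other (0.285) than Gapdh was to any other member. These distances rest on 4 points that share their libraries and are given without a test.

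As CPM ratios within a tumour, which do not depend on library size, Pgam1 over Pkm was 0.0742, 0.0929, 0.0738 and 0.0865 in tumours 1 to 4 and so varied 1.26-fold. Gapdh over Pkm was 0.441, 0.200, 0.696 and 0.629, a range of 3.48-fold with tumour 2 lowest. Gapdh over Pgk1 was 0.831, 0.531, 0.843 and 0.841, near constant in tumours 1, 3 and 4 and lower in tumour 2. The ratios show that the steps of the pathway did not keep 1 proportion across tumours, and they do not show which gene of a pair moved.

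Among the 10269 genes whose mean CPM reached 10, the profiles nearest to the mean profile of the 8 members were those of Pih1d1 (distance 0.0080), Tgm1 (0.017), Ndufa11 (0.032), Fntb (0.033) and 9430023L20Rik (0.034), against a median of 0.378 over all these genes. Pih1d1 had 31.8, 18.8, 20.6 and 18.4 CPM in tumours 1 to 4. Aldoa was the nearest member, at rank 40 (0.075), and Gapdh the farthest, at rank 7894 (0.502). A single gene can lie nearer to a mean profile than the genes it was made from, and no shared control is read from 4 points.

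Levels between members were compared per kilobase of annotated exon, within each tumour. The order of the means ran from Tpi1 (291 ± 66.6 CPM per kb, SD, n = 4), Aldoa (269 ± 90.2), Pgk1 (264 ± 84.2) and Pkm (202 ± 76.7) through Gapdh (113 ± 49.3), Eno1 (68.6 ± 25.4) and Pgam1 (41.2 ± 14.1) to Aldoc (4.82 ± 0.566), Pklr (1.65 ± 1.53) and Eno2 (0.242 ± 0.0412). Of the 9 neighbouring pairs at this length, 4 kept their order in 4 of 4 tumours. They were Pkm above Gapdh, Eno1 above Pgam1, Pgam1 above Aldoc and Aldoc above Pklr. For all 4 pairs an exact permutation test that flips signs over tumours (two-sided) gave 2 of 16 sign patterns at least as extreme, the fewest this design can give, and an adjusted p of 0.281 over the 9 pairs, so none could pass 0.05. Per kb of all annotated exons, Tpi1, Aldoa and Pgk1 differed by less than the spread of the difference between tumours, with mean log2 differences of 0.14 ± 0.25 (SD, n = 4) for Tpi1 minus Aldoa and 0.030 ± 0.26 for Aldoa minus Pgk1. The same held for Pgk1 against Pkm (0.40 ± 0.51) and Gapdh against Eno1 (0.65 ± 0.77).

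Among neighbouring pairs in this order whose genes both had counts in all tumours, the step from Pgam1 to Aldoc was the widest. Pgam1 was 6.17 to 11.5 times higher per kb. The pairs with Pklr were left out for its count of 0. The order within the upper part turned with the length used. Summing all annotated exons counts long retained-intron transcripts, and gives Gapdh 4133 bases where its longest protein-coding transcript has 1420, and Pkm 5001 where it has 2432. With the longest protein-coding transcript, a length chosen after seeing the data, Gapdh went from 113 to 328 CPM per kb and Pkm from 202 to 415, and the order became Aldoa, Tpi1, Pkm, Gapdh, Pgk1, Eno1, Pgam1, Aldoc, Pklr and Eno2. Aldoa minus Pgk1 then had a mean log2 difference of 0.64 ± 0.26 (SD, n = 4), above its spread, with the longest annotated transcript as well, and 0.41 ± 0.26 with no length scaling. Pkm was above Gapdh in 4 of 4 tumours per kb of all annotated exons. Per kb of the longest protein-coding transcript it was above in 2 of 4, with a mean log2 difference of 0.40 ± 0.81. The last 4 places and the rank of Eno1 were the same under both lengths.

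**Figure D3:**
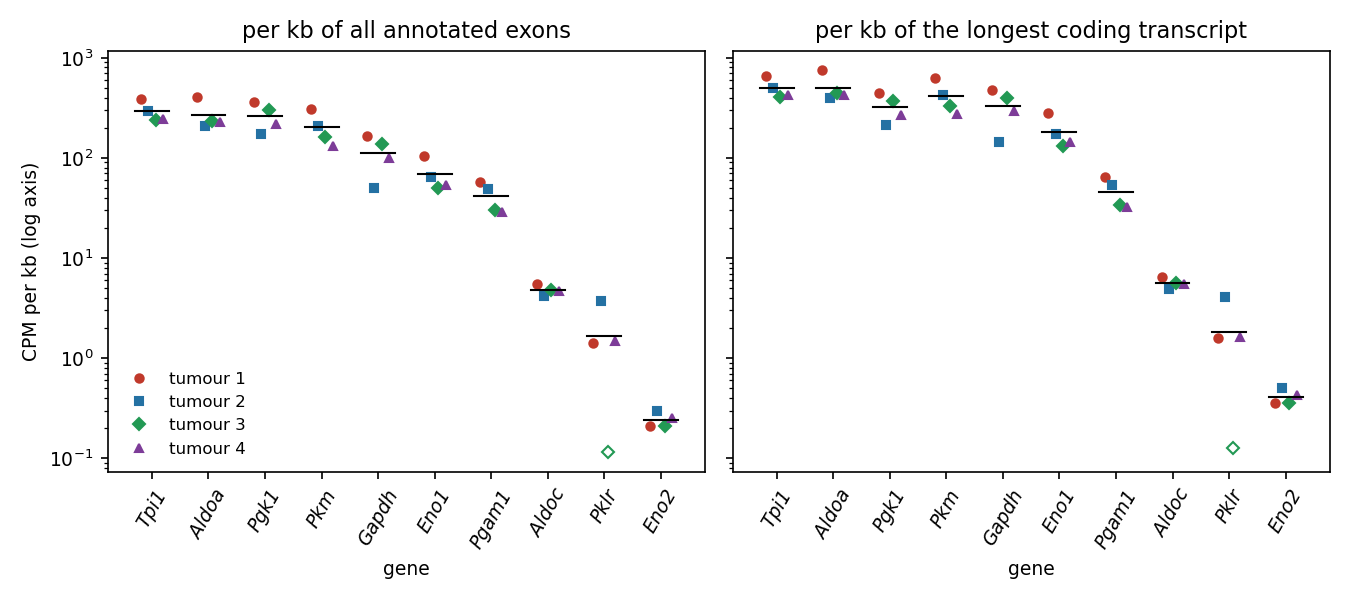
CPM per kb (log axis) of the 10 members in each of 4 tumours, per kb of all annotated exons (left) and of the longest protein-coding transcript (right); points are libraries, black lines are means and open points are a count of 0 drawn at the floor. Pgam1, Aldoc, Pklr and Eno2 took the last places under both lengths, whereas Pkm and Gapdh moved up on the right.

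In 3 steps more than 1 member encodes the same activity. Aldoa made up 98.1% ± 0.327 (SD, n = 4) of aldolase CPM per kb and Aldoc 1.84% ± 0.319. Aldoa was between 48.4 and 72.2 times Aldoc per kb with 0.5 added to each count, the highest ratio being that of tumour 1, and the mean log2 difference was 5.75 ± 0.28 (SD, n = 4). Pkm made up 99.2% ± 0.767 of pyruvate kinase. Pkm was 215, 55.8 and 89.9 times Pklr per kb in tumours 1, 2 and 4, and at least 1415 times in tumour 3, where Pklr was taken at the floor. Each of the pairs Aldoa and Aldoc, Eno1 and Eno2, and Pkm and Pklr kept its direction in 4 of 4 tumours, which again left 2 of 16 sign patterns at least as extreme in the exact permutation test.

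Of these 3 steps, enolase had the largest contribution from a gene outside the members. Of the summed CPM per kb of Eno1, Eno2 and Eno3, Eno1 made up 87.1% ± 3.95 (SD, n = 4), Eno3, the muscle enolase, 12.6% ± 3.91 and Eno2 0.334% ± 0.105. Eno1b and Eno4 were not part of this sum. Eno3 had 19.0, 11.3, 15.7 and 18.8 CPM in tumours 1 to 4, and its share was 9.39% and 9.03% in tumours 1 and 2 and 15.3% and 16.6% in tumours 3 and 4. The size of this share turns on the length: per kb of the longest protein-coding transcript Eno1 made up 94.0% and Eno3 5.72%. Of the 6 markers of heart and skeletal muscle, 2 had a mean CPM of at least 1, their summed level was 3.85 to 5.23 CPM, and Myl1 was at 0 in all tumours. The mean log2 difference of Eno1 minus Eno2 was 8.02 ± 0.58 (SD, n = 4).

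Of the other isozymes, those known from germ cells and muscle in the steps from Gapdh to Pgam1 were at or near 0. Gapdhs and Pgk2, the germ cell forms, had 0 counts in all tumours, Pgam2, the muscle mutase, at most 0.660 CPM and Eno4 at most 0.987 CPM. Eno1b had 4.51, 2.79, 2.47 and 2.14 CPM. Bpgm, which diverts bisphosphoglycerate from the pathway, had 34.3, 52.9, 58.1 and 46.7 CPM and was lowest in tumour 1, where 8 of 10 members were highest.

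Markers of the cells in which the scarce forms are known were set beside them. Beside Eno2, 8 neuroendocrine markers summed to 1.60 to 5.00 CPM, with Chga and Resp18 at 0 in all tumours and Insm1 at most 0.220 CPM. Beside Aldoc, 6 neuronal and glial markers summed to 12.5 to 24.2 CPM, mostly Map2 (8.71 to 18.6 CPM), and their sum was highest in tumour 1 and lowest in tumour 2, as was Aldoc. Beside Pklr, 5 liver markers summed to 493, 271, 28.3 and 225 CPM in tumours 1 to 4, nearly all of it Alb, and Alb, Apoa1 and Ttr were lowest in tumour 3, the tumour without a Pklr count. Cps1 and Serpina1a, which mark liver cells more strictly, were at most 0.232 CPM. The 6 red blood cell markers summed to 39.8, 32.3, 110 and 45.1 CPM, highest where Pklr was at 0. The part of these cells in the levels of Aldoc, Eno2 and Pklr was not tested.

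The counts of some members are uncertain because other genes carry near-identical sequence, and the authors' handling of reads that match several places was not given in the sources used here. Copies were looked for as annotated transcripts of another gene that share at least 80 nt at 97% identity. Gapdh had 108 such copies, of which 102 are annotated pseudogenes and 91 had counts. The copies summed to 98.6, 47.3, 69.8 and 51.5 CPM in tumours 1 to 4, or 12.7, 18.6, 11.0 and 11.0% of the sum with Gapdh. The summed copies were thus also lowest in tumour 2, and adding them to Gapdh leaves tumour 2 lowest. Gm10284, the copy with the most reads over the 4 tumours, had 20.4, 5.34, 20.9 and 16.9 CPM and was lowest in tumour 2 like Gapdh. Not all copies followed Gapdh: 3000002C10Rik had 5.50, 9.06, 4.94 and 6.90 CPM and was highest in tumour 2. It matches Gapdh over 173 nt only, and Peli2, a protein-coding gene, over 199 nt. The sum can therefore include reads from outside the matching stretch. Gm7336, which matches Gapdh over 1232 nt at 99.8% identity, had 202 counts in tumour 1 and 0 in the others.

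**Figure D4:**
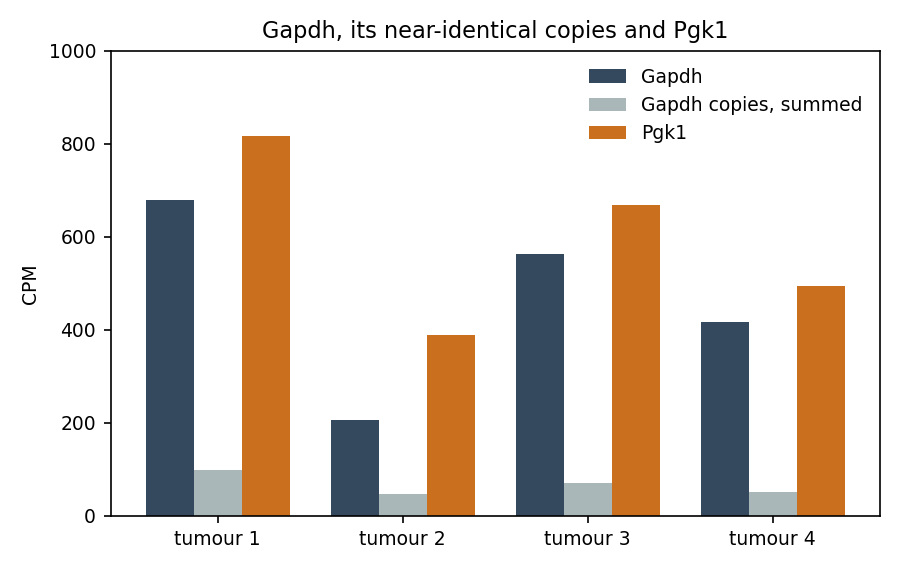
CPM (linear axis from 0) of Gapdh, of its near-identical copies summed and of Pgk1 in each of 4 tumours, 1 library per bar. All 3 were lowest in tumour 2, and the copies stayed below 100 CPM.

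The copies of the other abundant members held little. Those of Eno1, among them Gm4735 and Eno1b, held 1.67 to 2.86% of the sum with Eno1, and Pgam1-ps2 held 3.22 to 5.21% of the sum with Pgam1. Pgk1 has 3 copies with at most 3 counts in a tumour, Aldoa, Tpi1 and Pkm have copies with no count in the table, and none was found for Aldoc and Eno2. Exons of Tpi1, Gapdh, Aldoa and Pklr overlap a gene on the opposite strand, by 34 nt with Spsb2, 68 nt with Iffo1, 25 nt with Fam57b and 711 nt with Hcn3. Hcn3 is also the only gene that shares near-identical sequence with Pklr, and it had at most 1.21 CPM. Pkm overlaps Gm49759, a gene on the same strand that is not in the count table, by 767 nt. The library kit keeps strand, and whether the counting used it was not given in the sources used here.

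Upstream of aldolase, the tumour with the highest level varied from gene to gene. Of 12 genes of upper glycolysis with a mean CPM of at least 1, 10 passed the test of spread, and the number with their highest value in tumours 1 to 4 was 3, 1, 5 and 3. Over all genes tested, 76.7% passed and 31.4% were highest in tumour 1. The list holds regulators such as Pfkfb2 besides the enzymes of the steps. Gpi1, which interconverts the hexose phosphates, had 606, 401, 389 and 418 CPM in tumours 1 to 4, and Dixon's ratio placed tumour 1 apart (0.841). Pfkl, a phosphofructokinase subunit, had 230, 159, 133 and 136 CPM, and Pfkp, another, 131, 64.0, 46.4 and 45.2 CPM, both highest in tumour 1. Hk2, a hexokinase, had 141, 148, 143 and 111 CPM. Pfkfb2, which sets the level of the activator of phosphofructokinase, had 139, 163, 294 and 227 CPM, the lowest value being that of tumour 1.

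Of 9 genes of glucose and lactate handling tested, 9 passed the test of spread, beside 76.7% of all genes tested. Of these 9, 5 were highest in tumour 1, beside 31.4% of all genes. The median ratio of tumour 1 to the mean of the others was 1.57, beside 0.992 over all genes. Ldha, which turns pyruvate into lactate, had 2032, 1196, 1450 and 1234 CPM in tumours 1 to 4. Its tumours were ordered 1, 3, 4 and 2 as those of Gapdh and Pgk1 were, an order whose share over all genes is not given. Slc16a1 and Slc16a3, which carry lactate across the membrane, had 167, 103, 77.5 and 107 CPM and 39.6, 13.7, 12.5 and 10.8 CPM. Pdk1, which restrains pyruvate entry into the mitochondrion, varied 1.27-fold. Slc2a1 encodes Glut1, a glucose transporter the study deleted in other mice. It had 104, 59.5, 65.4 and 44.0 CPM and was also highest in tumour 1. Slc2a3 encodes Glut3, which the study also deleted in other mice, alone or with Glut1. Its level was 312, 25.6, 456 and 70.6 CPM, with tumours 1 and 3 high and tumours 2 and 4 low. Ldhb was lowest in tumour 1 (55.3 CPM) and highest in tumour 2 (134 CPM).

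Genes known to respond to low oxygen include several glycolytic enzymes, so a separate list of 12 other hypoxia genes was read. All 12 passed the test of spread, beside 76.7% of all genes tested. The number highest in tumours 1 to 4 was 5, 2, 3 and 2, beside 31.4, 20.4, 30.2 and 18.0% of all genes. Vegfa had 454, 250, 452 and 402 CPM in tumours 1 to 4, and Hif1a, whose protein is regulated mainly after translation, 411, 321, 459 and 281 CPM. Bnip3 had 267, 166, 239 and 188 CPM. Vegfa and Bnip3 had the tumour order of Gapdh, 1, 3, 4 and 2, though Vegfa was nearly equal in tumours 1 and 3. The share of all genes with this order is not given here. Kdm3a had another order, with 244, 325, 219 and 287 CPM. Car9 was scarce, with 5.28, 2.56, 1.60 and 0.714 CPM. Adm had a mean of 1.36 CPM.

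**Figure D5:**
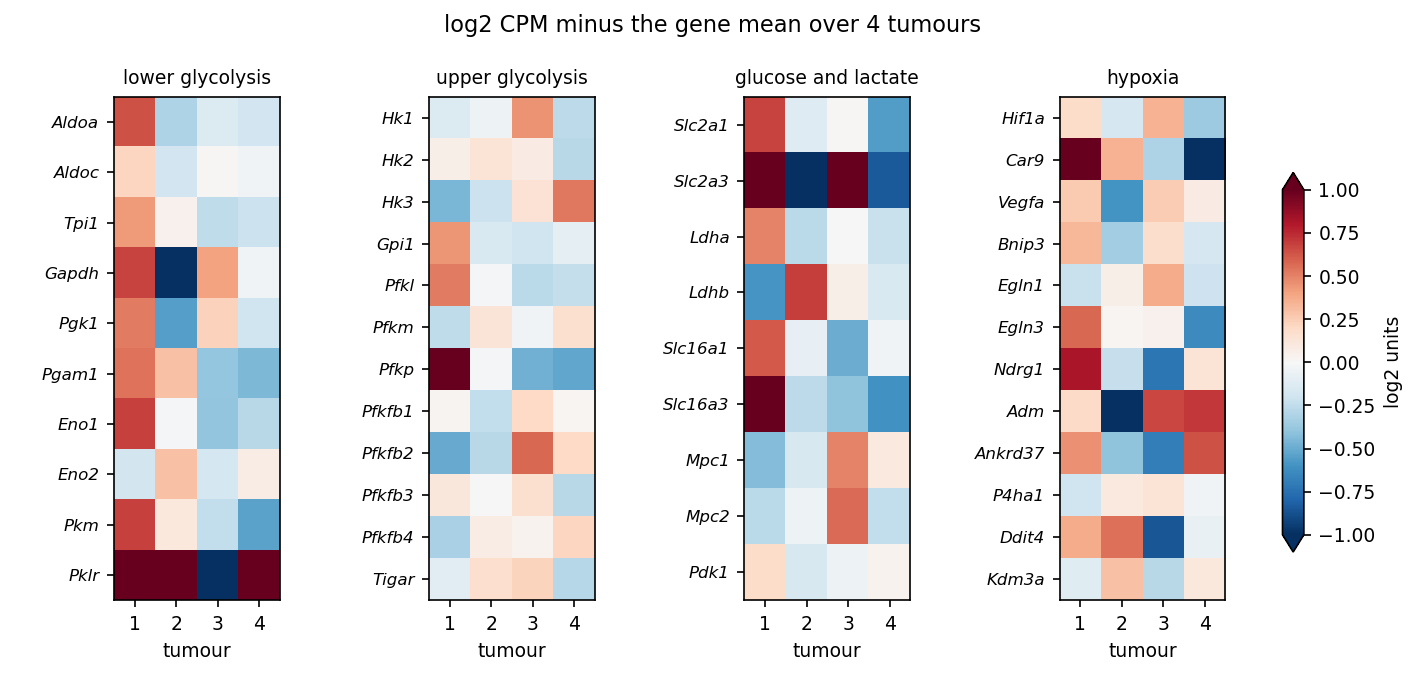
Log2 CPM minus each gene's mean over 4 tumours (colour, from -1 to 1 log2 units with larger values at the end colours) for members and for genes of upper glycolysis, of glucose and lactate handling and of the hypoxia list with a mean CPM of at least 1; columns are tumours 1 to 4. The column of tumour 1 was highest in 8 of 10 members and in 3 of 12 genes of upper glycolysis. The number was 5 of 9 for glucose and lactate handling and 5 of 12 for the hypoxia list. Over all genes tested the share was 31.4%. The row of Pklr is set by its count of 0 in tumour 3.

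Gapdh is often used as a reference gene, so it was set beside 12 genes used for that purpose. These 12 had a median SD of log2 CPM of 0.18, where Gapdh had 0.75. The test of spread beyond counting error was passed by 12 of 12, beside 76.7% of all genes tested. Actb had 2242, 2023, 2281 and 1907 CPM in tumours 1 to 4 (1.20-fold), Ywhaz 888, 816, 690 and 794 CPM, and Rpl30, the reference of the PCR assays of the study, 83.3, 89.3, 68.7 and 90.4 CPM (1.32-fold). Tubb5 had 655, 449, 357 and 368 CPM and was highest in tumour 1. Rplp0 was the exception, with 1018, 983, 368 and 931 CPM and a low value in tumour 3. Of the 10 members, Aldoc was the only one with an SD at or below the median of these 12 genes.

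The tumours are mixtures of cells, and several marker lists differed in the tumours where the members did. In tumour 1, 6 of 8 alveolar type 2 markers were lowest, 4 of 5 pan-leukocyte markers were lowest (summed level 114 CPM against 136 to 269 CPM), 3 of 4 club cell markers were lowest (87.3 against 573 to 959 CPM) and 3 of 4 epithelial markers were highest (3972 against 2488 to 2632 CPM), while Cdh1 stayed between 842 and 887 CPM. Also highest in tumour 1 were 4 of 6 fibroblast markers (summed level 565 against 321 to 532 CPM, while Dcn and Pdgfra were lowest there), 4 of 8 proliferation markers (848 against 581 to 752 CPM) and 6 of 8 markers of dissociation and early response (176 against 129 to 152 CPM). In tumour 3, 5 of 5 pan-leukocyte and 4 of 5 macrophage markers were highest, the latter summing to 1884 CPM in tumour 1 and 4207 to 6834 CPM in the others, nearly all of it Lyz2 (1774, 4084, 6315 and 6696 CPM in tumours 1 to 4), which alveolar type 2 cells also express, and in tumour 4, 8 of 8 proliferation markers were lowest. Over all genes tested, 31.4% were highest in tumour 1 and 30.2% in tumour 3, and the share lowest in each tumour is not given here. The 5 endothelial markers summed to 212 to 275 CPM and the 4 neutrophil markers to 17.5 to 37.5 CPM. No listed marker of these types was at 0 in any tumour. The part of cell composition in the levels of the members was not tested.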

How the data were processed

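RNA from 4 control KP lung tumours was sequenced, with 1 library per tumour from 500 ng of total RNA (TruSeq stranded mRNA kit, single-end reads of 85 nt). The authors trimmed reads, aligned them to mm10 with HISAT2 and counted them per gene, and deposited raw counts without normalization. The submitters' processing notes also name bcl2fastq 2.17, cutadapt 1.4.2, featureCounts 1.4.4 and edgeR. The annotation release, strand setting and handling of multiply mapping reads were not given in the sources used here. The authors also deposited log2 normalised counts, which served only as an alternative. Counts in single and combined tables were equal in 156068 of 156068 values.

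Library totals were multiplied by TMM factors (edgeR 4.0.16, R 4.3.3) and CPM computed from them. For log2 CPM, 0.5 was added to the count and 1 to the scaled total. Spread was tested for genes whose mean CPM reached 1 by a chi-square test against Poisson expectations, Benjamini-Hochberg adjusted and called at 0.05, rather than by edgeR's test, since 1 group has no contrast. Simulated data were used to check the test. Levels between genes were divided by exon length and compared by exact sign-flip permutation tests over 16 sign patterns, of which at least 2 are as extreme as the data. Copies were found with BLAST 2.17.0. Positions are GENCODE M21 on GRCm38, where 37693 of 39017 gene IDs were found, and promoters are RefSeq's on GRCm38.p6. Protein sequences were not used here, so the planned comparison of protein identity was not run. Depth was 8151613 to 8799007 counts per tumour, and intervals cover counting error only.

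The members and the 23 gene lists (162 entries, 162 matched, 3 of them by identifier) were chosen with earlier results of these data known. All 10 members and the other isozymes are named, and some genes of the lists are not reported here. Of the lists of upper glycolysis, glucose and lactate handling, gluconeogenesis, hypoxia and reference genes, the 2 to 4 genes with the highest mean CPM and the 2 with the largest SD are named, with the 5 genes nearest to the members' mean profile and the model genes. Slc2a1, Ldhb, Rpl30, Pck1, G6pc and the markers and copies given with values were named outside that rule, after their values were seen. Alternatives were other scalings, filters, added counts and lengths, the deposited log2 values, added copies and leaving out each tumour.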

Additional observations from a re-analysis of the deposited data

Results flagged for a closer look

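In 18 results over the 4 tumours the distance of the highest or lowest tumour from its neighbour was compared with Dixon's limit for 4 samples, which chance passes in about 1 in 20, and 3 passed. In each of the 3 tumour 1 was the one far from the others. The share of all counts held by the 10 members was 0.616% in tumour 1 against 0.326 to 0.371% in the others (ratio 0.845). Aldoa made up 98.6% of aldolase CPM per kb in tumour 1 against 97.96 to 98.03% in the others (ratio 0.901). Aldoc made up 1.36% in tumour 1 against 1.97 to 2.01% (ratio 0.931), which is nearly the complement of the Aldoa share and so not a separate result. The CPM of Aldoc itself was highest in tumour 1, so its lower share there accompanied a higher Aldoa level.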

How the results depend on the processing

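The number of members with spread beyond counting noise was 7 of 8 at a mean CPM of at least 10, which leaves fewer members tested. It was 8 of 10 under all other alternatives, those that left out 1 tumour included. The share of all genes tested was 85.3% at the former filter and 53.5% with no filter. That share was 62.3 to 71.9% when 1 tumour was left out, beside 76.7% in the main setting. The count of members highest in tumour 1 was 8 under DESeq2 size factors, library size only, either filter and the deposited log2 values, and 7 when scaled to the reference genes. The share of all genes highest in tumour 1, 31.4%, is given for the main setting only. The count with 1 tumour apart was 0 under the same alternatives except the reference genes, which were not tried, and with 2 added to each count. Length moved most values. With the longest annotated and with the longest protein-coding transcript alike, Pgk1 minus Pkm reversed to -0.34, the Aldoa share moved to 98.8% and the Aldoc share to 1.16%, and the Eno1 share to 94.0% and the Eno3 share to 5.72%. With no length scaling Pgk1 minus Pkm was -0.75, the Eno1 share 95.2% and the Eno3 share 4.47%, and with the longest annotated transcript Gapdh minus Eno1 was -0.43. Leaving out 1 tumour took Aldoa minus Pgk1 from -0.051 (without tumour 2) to 0.15 (without tumour 3), and the median range of the members from 1.41-fold (without tumour 1) to 1.95-fold. The other values kept their direction and their side of the threshold or stayed within the limits set for a move, but some changed in size. Aldoa minus Pgk1 was 0.64 with either longest transcript, Aldoc minus Pklr went from 2.95 to 1.26 without tumour 3, and 4 to 6 neighbouring pairs kept their order when 1 tumour was left out. No paired analysis was possible because the 4 tumours form 1 group. With 4 tumours no sign-flip test could pass 0.05, and at this depth Eno2, with 8 to 12 counts, is the least precise member.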

Other observations

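Gluconeogenesis runs against the lower glycolytic steps and shares the reversible ones, and its own enzymes were read in the same tumours. Of 7 genes listed, 5 had a mean CPM of at least 1, and 5 of 5 passed the chi-square test of spread beyond counting error. The highest value lay in tumour 4 in 3 of them and in tumours 1 and 3 in 1 each. Fbp2, a fructose bisphosphatase known from muscle, had 43.1, 9.29, 42.0 and 73.4 CPM in tumours 1 to 4, with tumour 2 low as for Gapdh, and its range was 7.90-fold. Fbp1, the liver form, had at most 3.09 CPM. Pck2, the mitochondrial form of the carboxykinase, had 77.5, 78.4, 55.9 and 84.1 CPM, Pcx, which makes oxaloacetate from pyruvate, 35.0, 45.4, 66.0 and 34.7 CPM, and G6pc3 43.9, 39.0, 26.7 and 27.6 CPM. Pck1 had 0 counts in all tumours and G6pc at most 0.110 CPM.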
